A study of Homo sapiens with 6 samples.

Results

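The genes described here encode the protein part of the cytosolic ribosome. They were 85 of the 58395 genes in the deposited tables and were taken by symbol: names of the form RPL or RPS followed by a number and an optional A, X or L, plus RPSA, RPLP0, RPLP1, RPLP2 and RPL36AL. Pseudogenes, the Y-linked copies of RPS4 and the RPS6 kinases were left out. Of the 85 genes, 77 were canonical, with 43 in the large subunit, 31 in the small subunit and 3 in the P stalk, and 8 were paralogs of a canonical gene. The 8 paralogs were RPL22L1, RPL7L1, RPL39L, RPS27L, RPL26L1, RPL36AL, RPL3L and RPL10L.

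RNA was sequenced from 6 clonal lines of HEK293, an established human embryonic kidney line. The 3 control lines (GST 2, GST 8 and GST 9) overexpressed glutathione S-transferase (GST-3F), and the other 3 (NOCT 4, NOCT 11 and NOCT 12) overexpressed NOCT ∆(2-15)-3F, a form of the phosphatase nocturnin without its residues 2 to 15. Both groups carry a construct with the same tag, named 3F in the labels, and no untransfected line was analysed here. Each line is 1 clone with 1 library, so a difference between groups cannot be told apart from differences among 6 clones, and in such bulk RNA a change in the number of cells and a change in RNA per cell cannot be told apart.

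The deposited libraries held 19729745 to 24422406 reads counted in genes. The row of the GST construct had 46 to 88 reads in the GST lines and 0 or 1 in the NOCT lines, and the row of the NOCT construct had 46 to 82 reads in the NOCT lines and 3 to 7 in the GST lines. All 8 markers listed for HEK293 cells had reads in every line, although NEFM had 4 to 9 reads in 5 lines and 137 reads in NOCT 12, too few to be tested. Levels are given as CPM (read counts relative to library size, scaled between libraries by TMM). The summed level of the 8 markers was 1055 to 1396 CPM in the GST lines, 2067 in NOCT 4, 2052 in NOCT 11 and 1242 in NOCT 12. The 12 markers of fibroblasts, leukocytes, endothelium and hepatocytes summed to 10.8 to 12.8 CPM in the GST lines, 26.7 in NOCT 4, 23.1 in NOCT 11 and 7.87 in NOCT 12. COL1A1, the main chain of type I collagen, made up most of that sum, and CD3E was at 0 in all 6 lines. NOCT 4 and NOCT 11 therefore stood apart from NOCT 12 in both sums. VIM, the intermediate filament protein vimentin, supplied most of the HEK293 sum, with 678 to 946 CPM in the GST lines and 1425, 1400 and 779 CPM in NOCT 4, 11 and 12. Single markers did not all follow the sum: PAX2, a kidney transcription factor, had 3.85 to 5.69 CPM in the GST lines and 0.746, 1.30 and 1.20 CPM in NOCT 4, 11 and 12. DESeq2 called 3 of the 7 tested HEK293 markers, against 3.41% of all genes with an adjusted p. KRT8 and INA were higher and PAX2 was lower in the NOCT lines. By edgeR 0 were called, and 4 of the 7 (57.1%) had an unadjusted p under 0.05, against 13.9% of all genes.

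Ribosomal proteins are made in near-equal numbers, 1 copy of most of them for each ribosome, and they are assembled with ribosomal RNA in the nucleolus. Most of their mRNAs begin with a C followed by a run of pyrimidines, the 5′ terminal oligopyrimidine (TOP) motif, through which growth signals from mTOR and the protein LARP1 act on their translation and stability. A few canonical proteins have paralogs that can take their place, such as RPL3L in heart and skeletal muscle and RPL10L in the male germ line.

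The start of each gene is the sequence through which these mRNAs are most often recognised as a group, and it also separated most canonical genes from their paralogs. RefSeq start windows on GRCh38.p14 were found for 68 of the 85 genes. Of these, 47 (69.1%) began with a C and a run of at least 5 pyrimidines (C or T), against 5.14% of 27305 genes of any kind with a listed start. The runs of the 47 genes were 5 to 19 bases long, with a median of 8. Among the paralogs with a listed start, RPL22L1 had such a run and RPL36AL, RPL7L1, RPS27L, RPL26L1 and RPL10L did not. The windows below hold 40 bases before the annotated start and 20 bases from it, read 5′ to 3′ on the strand of the gene. They are given for the 4 expressed pairs with a listed start for both genes, for RPL39, which had the longest run, and for RPS7, RPL7L1 and RPS4X. Capitals mark the pyrimidine run that begins with a C at the start.
RPL22 (chr1:6199576-6199635, minus strand): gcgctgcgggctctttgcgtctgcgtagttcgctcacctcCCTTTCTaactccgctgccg
RPL22L1 (chr3:170870176-170870235, minus strand): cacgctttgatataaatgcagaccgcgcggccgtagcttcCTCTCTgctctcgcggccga
RPS27 (chr1:153990722-153990781, plus strand): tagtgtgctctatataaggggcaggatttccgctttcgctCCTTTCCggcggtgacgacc
RPS27L (chr15:63157458-63157517, minus strand): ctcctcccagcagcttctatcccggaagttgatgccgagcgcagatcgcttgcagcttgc
RPL26 (chr17:8383174-8383233, minus strand): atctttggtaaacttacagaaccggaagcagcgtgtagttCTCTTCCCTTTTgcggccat
RPL26L1 (chr5:172958689-172958748, plus strand): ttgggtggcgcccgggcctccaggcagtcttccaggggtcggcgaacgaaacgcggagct
RPL36A (chrX:101390971-101391030, plus strand): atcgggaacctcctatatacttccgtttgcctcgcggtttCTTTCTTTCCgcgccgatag
RPL36AL (chr14:49620607-49620666, minus strand): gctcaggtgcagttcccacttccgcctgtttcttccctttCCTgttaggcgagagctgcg
RPL39 (chrX:119791611-119791670, minus strand): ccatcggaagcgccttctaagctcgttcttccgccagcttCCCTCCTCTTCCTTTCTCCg
RPL7L1 (chr6:42879576-42879635, plus strand): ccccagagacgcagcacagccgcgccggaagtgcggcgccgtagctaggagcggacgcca
RPS7 (chr2:3575220-3575279, plus strand): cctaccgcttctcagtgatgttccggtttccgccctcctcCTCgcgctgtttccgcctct
RPS4X (chrX:72277229-72277288, minus strand): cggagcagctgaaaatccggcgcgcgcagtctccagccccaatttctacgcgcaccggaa

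In RPL36A the run from the C was 10 bases, and in RPL36AL the listed start lies near the end of a longer pyrimidine stretch, which left a run of 3. RPS7 also had a run of 3, and its listed start likewise lies near the end of a longer pyrimidine stretch. RPS4X had no run. Short motifs were counted in windows from 250 bases before to 50 bases after the start, on both strands. CCGGAAG, the core that ETS factors such as GABPA bind, was in 24 of the 68 genes (35.3%) against 12.2% of all 27305 genes. CTTTCC, which can overlap the pyrimidine run at the start, was in 32 of the 68 (47.1%) against 30.2%. TATAA was in 14 of the 68 (20.6%) against 24.2%. These are matches of letters and not measured binding.

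Some of the genes also hold other genes within their span. Small nucleolar RNA (snoRNA) genes, whose products guide modification of ribosomal RNA, lie within 28 of the 85 genes (32.9%) in GENCODE 29, against 255 of 19951 protein-coding genes (1.28%). RPL4 held 5 of them. The 85 genes lie on 21 chromosomes, with 12 on chromosome 19 and 9 on chromosome 3.

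Together the 85 genes took 2.52%, 2.64% and 2.69% of the gene counts in GST 2, 8 and 9, and 2.62%, 2.30% and 2.73% in NOCT 4, 11 and 12. The group means were 2.62% ± 0.088 (SD, n = 3) and 2.55% ± 0.22 (SD, n = 3). NOCT 11 had the lowest share and NOCT 12 the highest, so the groups overlapped at both ends. Mitochondrial genes held 25.1% (NOCT 4) to 30.0% (GST 2) of the gene counts. Without them the shares were 3.60%, 3.64% and 3.76% in GST 2, 8 and 9, and 3.49%, 3.16% and 3.80% in NOCT 4, 11 and 12. On that scale NOCT 4 also lay below every GST line, and NOCT 12 was still the highest.

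Levels between genes were compared per length, as the TPM that the authors deposited (transcript abundance relative to gene length and depth). RPS4X, the X-linked small-subunit gene whose partner is on the Y chromosome, was the highest at 2637 ± 194 TPM (SD, n = 3) in the GST lines and 2547 ± 196 (SD, n = 3) in the NOCT lines. It alone took 9.34% to 11.1% of the counts of the 85 genes. RPL7A, at a mean of 971 TPM over the 6 lines, and RPL19, at 955 TPM, were also among the highest, both in the large subunit. The lowest canonical genes were RPS10 at 10.4 TPM, RPL36A at 14.6, RPL17, which lines part of the exit tunnel, at 14.8, and RPS29 at 15.9. The canonical genes thus spanned from 10.4 to 2592 TPM with a median of 204.

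The part of read counting in that spread was not tested. The submitters' counts leave out reads that map to several places, which were 13.3% to 14.6% of the reads in a library, and reads that fall in more than 1 gene, which were 2.02% to 2.41%. A median of 74.4% of the 50-base stretches of a member's transcript occurred in no other GENCODE 29 gene, and the share was under 50% in 22 of the 85 genes. RPL9 had the lowest share at 12.7%, RPS10 had 14.5%, RPL36A 19.7% and RPL17 26.7%. The median level was 109 TPM in the 17 canonical genes with under 40% of such stretches, 258 TPM in the 35 with 40% to 80%, and 188 TPM in the 25 with 80% or more. Across the 77 genes, which are not independent replicates, Spearman's rho of that share and the TPM was 0.17, a description of genes in the same libraries. RPS10, RPL17 and RPL36A also overlap read-through genes on the same strand (RPS10-NUDT3, RPL17-C18orf32 and RPL36A-HNRNPH2) over 39.4%, 24.8% and 8.4% of their exon bases. The TPM further rests on the summed length of all annotated exons of a gene, with a median of 2982 bases in these genes against 829 bases for the main coding transcript. Comparisons of a gene with itself between lines do not depend on that length.

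**Figure D1:**
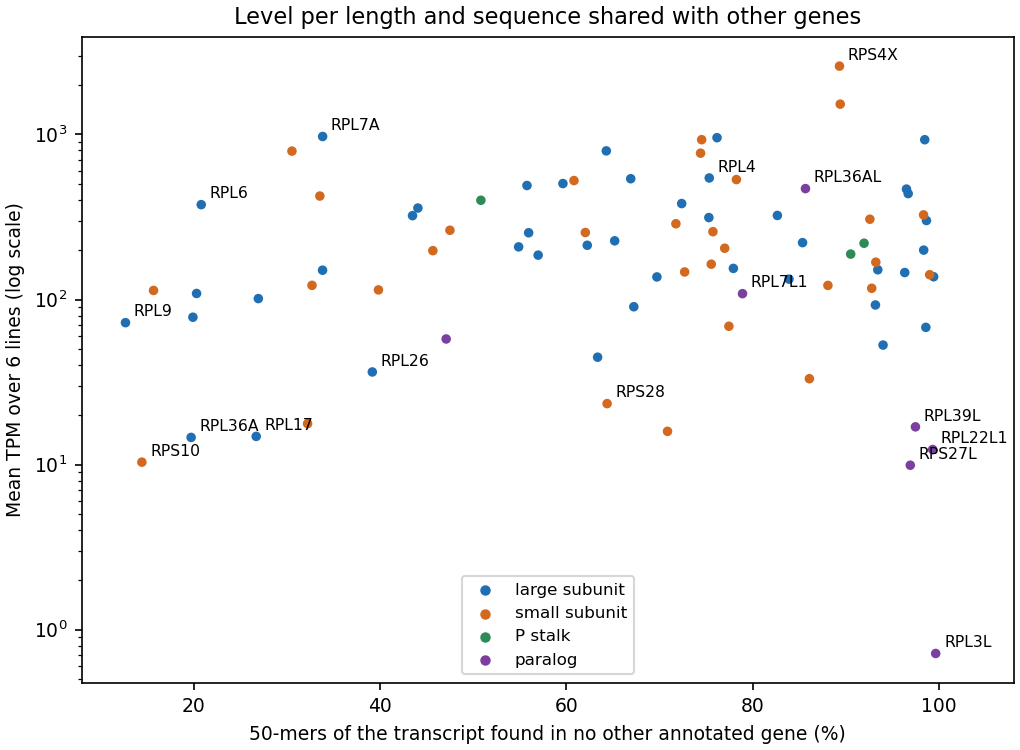
Mean TPM over the 6 lines on a log scale, against the percentage of 50-base stretches of each transcript that occur in no other annotated gene, with 1 point for each of the 84 genes with enough reads, coloured by class. RPS10, RPL36A and RPL17 are low on both axes, RPL7A and RPL6 are high in TPM at a low unique share, and RPS27L, RPL22L1, RPL39L and RPL3L are low in TPM with nearly all of their sequence unique.

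Between the groups, 84 of the 85 genes could be tested, and edgeR's quasi-likelihood test, with p-values adjusted (Benjamini-Hochberg) across 17261 genes, called 0 of them at an adjusted p of 0.05. It called 10 of all 17261 genes (0.0579%). DESeq2 called 2 of the 84, RPS7 and RPL36AL, against 508 of 14918 genes with an adjusted p (3.41%). An unadjusted p under 0.05 was reached by 11 of the 84 (13.1%), 9 lower and 2 higher in the NOCT lines, against 13.9% of all genes (6.52% lower and 7.38% higher). The 3 lines of one group lay wholly beyond the other 3 in 13 of the 84 genes (15.5%), 11 lower and 2 higher in the NOCT lines, against 20.0% of all genes (9.54% lower and 10.5% higher). Pooled over both directions, these shares were no higher than those of all genes. Among lower genes alone they were above them, at 10.7% for an unadjusted p under 0.05 and 13.1% for groups that did not overlap. In the authors' deposited table, 488 of 17002 genes (2.87%) had an adjusted p under 0.05, and RPS7 was the 1 ribosomal protein gene among them.

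The direction of the small differences was less even. The fitted log2 fold change, NOCT over GST, was below 0 in 61 of the 77 canonical genes, with a median of -0.12, against 49.3% of all genes tested and a median of 0.0046. The small subunit had 27 of 31 genes below 0 and a median of -0.14, the large subunit 31 of 43 and -0.10, and the 3 stalk genes a median of -0.16. The fitted values of the canonical genes ran from -0.53 for RPS7 to 0.26 for RPL28, and the median standard error of a single gene was 0.12. With library sizes set by the spike-in RNAs, the median of all genes was 0.15 and that of the canonical genes 0.02, with 31 of 77 below 0, so the canonical genes lay about as far below the rest as before while their sign turned. On log2(TPM + 0.1) the median of all genes was 0.08 and that of the canonical genes -0.04, with 47 of 77 below 0.

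**Figure D2:**
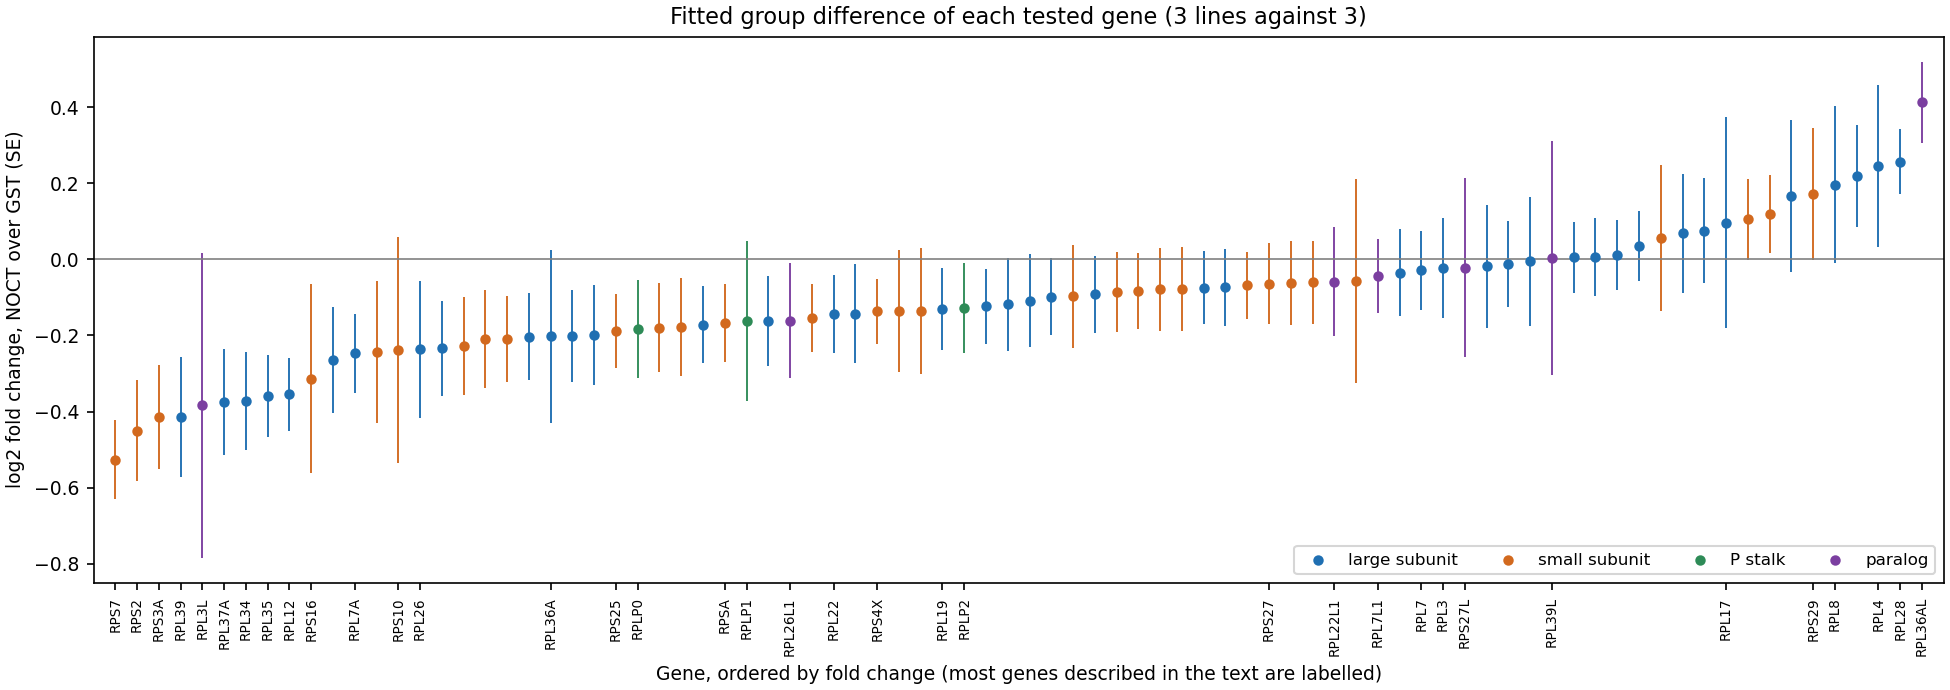
Log2 fold change, NOCT lines over GST lines, of the 84 tested genes in order of size, with bars of 1 standard error from edgeR's quasi-likelihood fit of 3 lines against 3, coloured by class, with the symbols of most genes described in the text. Most points lie a little below 0, the far ends are RPS7 at -0.53 and RPL36AL at 0.41, and no gene passed the adjusted threshold.

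The lines of a group did not share that direction evenly. For each gene the log2 CPM in a line was set against its mean over the 6 lines. The median of the 77 canonical genes was 0.06 in GST 2, 0.01 in GST 8 and 0.11 in GST 9. It was -0.05 in NOCT 4, -0.22 in NOCT 11 and 0.09 in NOCT 12. NOCT 11 was therefore the low line, and NOCT 12 lay within the range of the GST lines. In NOCT 11, 72 of the 77 genes were below their 6-line mean, against 52 in NOCT 4, 18 in NOCT 12 and 10 to 35 in the GST lines. NOCT 11 was the lowest of the 6 lines in 56 of 77 genes (72.7%), and it was the lowest in 15.3% of all genes tested. Without NOCT 11 the median fold change of the canonical genes was -0.04, with 51 of 77 below 0, and without NOCT 12 it was -0.19, with 70 of 77 below 0. NOCT 11 also had the lowest share of reads with several places in the genome, 13.3% against 13.96% to 14.58% in the other 5 lines, and the lowest share of ambiguous reads, 2.02% against 2.16% to 2.41%. The part of these shares in its low ribosomal protein counts was not tested. The 25 canonical genes with at least 80% unique sequence had a median of -0.21 in NOCT 11, beside -0.31 in the 17 with under 40%. NOCT 4 and NOCT 11, the lowest lines here, were also the lines with the higher sums of HEK293 markers, mostly VIM, and of COL1A1, and the part of that in the low medians was not tested.

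**Figure D3:**
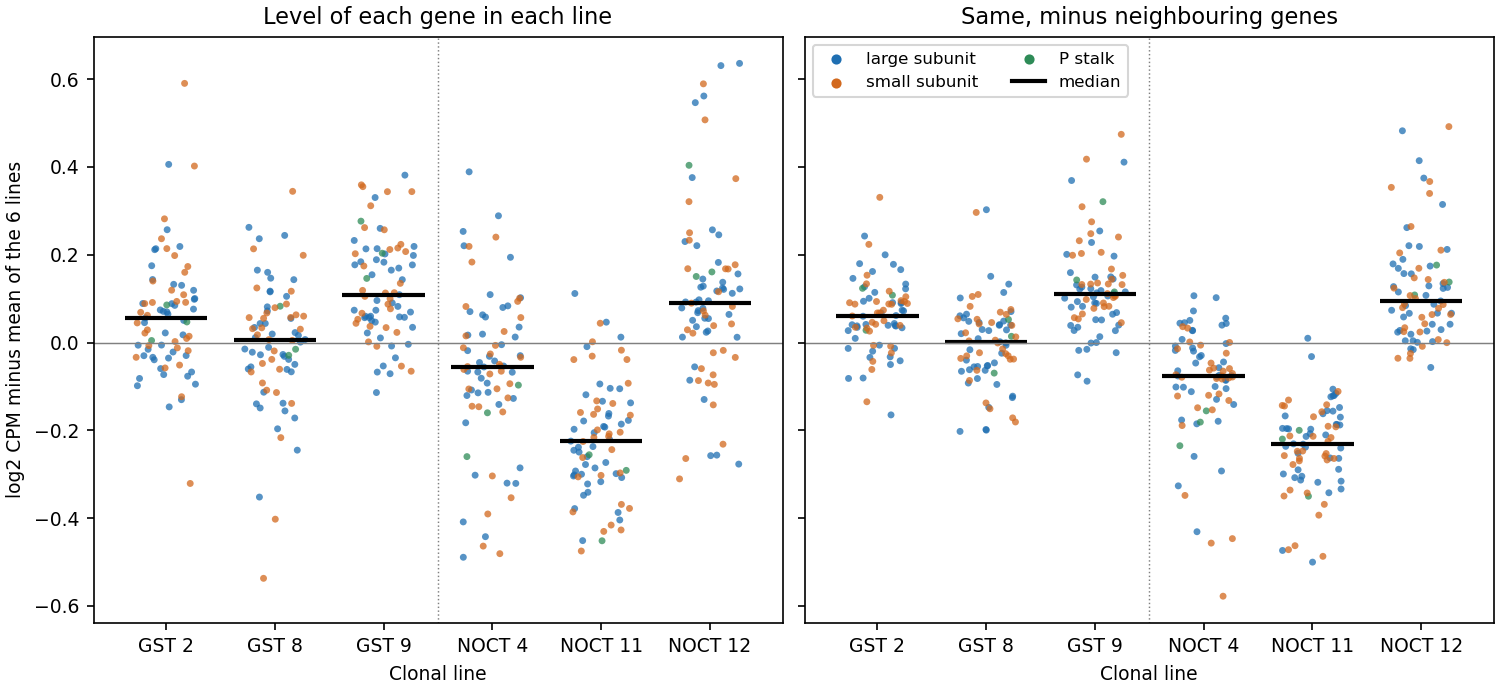
Log2 CPM of each of the 77 canonical genes minus its mean over the 6 lines, by line (left), and the same after subtracting the median value of neighbouring genes (right), with a black bar at the median and colours for the subunits. NOCT 11 is lowest in both panels (medians -0.22 and -0.23), NOCT 12 is at 0.09 in both, and the points lie closer to their medians on the right.

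Of 22 other mRNAs known to carry a TOP motif, mostly translation factors, 21 were tested, and EEF1G is listed at 0 in all 6 lines. Their median was -0.20 in NOCT 11, with 19 of 21 below their mean, -0.08 in NOCT 4 and 0.10 in NOCT 12. The order was not seen in all 755 other tested genes whose listed start has a C and at least 5 pyrimidines, whose medians were 0.00 to 0.02 in all 6 lines. Canonical genes with such a start had a median fold change of -0.15, with 40 of 46 below 0, and those with another listed start had -0.10, with 11 of 16 below 0. With the values of neighbouring genes subtracted, as described below, the medians were nearer to each other. They were -0.137 (43 of 46 below 0) and -0.129 (14 of 16 below 0). The difference between starts was not tested.

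The median of 34 ribosome biogenesis factors was -0.05 in both GST 2 and NOCT 11, and 0.07 in NOCT 4 and NOCT 12. In NOCT 11, 22 of the 34 were below their mean, and the contrast with the ribosomal protein genes was not tested. Their fold changes split into 17 below and 17 above 0. The 15 genes of RNA polymerase I and its factors, which transcribe ribosomal RNA, had a median of -0.03 in NOCT 11 and 10 of 15 fold changes below 0. No gene in these lists or among 17 regulators of ribosomal protein mRNAs and growth passed edgeR's adjusted threshold, and by unadjusted p under 0.05 there were 4 of 21 TOP mRNAs (19.0%), 4 of 34 biogenesis factors (11.8%), 0 of 15 polymerase I genes and 4 of 17 regulators (23.5%), against 13.9% of all genes. DESeq2 called 1 gene in these 4 lists, MYC, against 3.41% of all genes with an adjusted p. Among the regulators, the growth factor-responsive transcription factor MYC had 53.5, 42.4 and 52.6 CPM in GST 2, 8 and 9 and 14.1, 12.2 and 32.1 CPM in NOCT 4, 11 and 12. Its groups did not overlap, and its log2 fold change was -1.35 ± 0.34 (SE) with an edgeR adjusted p of 0.184 and a DESeq2 adjusted p of 0.0020. LARP1, which binds TOP motifs, had 298, 305 and 301 CPM in the GST lines and 261, 252 and 272 CPM in the NOCT lines, a log2 fold change of -0.20 ± 0.080 (SE) with an edgeR adjusted p of 0.315.

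RPS7, a small-subunit protein that can also bind MDM2, had the smallest p of the 85 genes. Its 2 groups did not overlap, with 258, 251 and 281 CPM in GST 2, 8 and 9 and 167, 205 and 176 CPM in NOCT 4, 11 and 12. The log2 fold change was -0.53 ± 0.10 (SE), with an edgeR adjusted p of 0.120 and a DESeq2 adjusted p of 0.0025. The authors' deposited table gives -0.49 with an adjusted p of 0.0065. RPS7 lies on the plus strand at chr2:3575205-3580920 (GRCh38). Up to 50 expressed genes on each side of it, none of them a ribosomal protein gene, had a median difference of -0.39 between the same groups, which left -0.14 for RPS7. By line, RPS7 was 0.39 below its mean in NOCT 4 and 0.31 below in NOCT 12, where its neighbours were 0.32 and 0.40 below theirs. In NOCT 11, RPS7 was at -0.09 and its neighbours at 0.16.

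The same held along other chromosome stretches. The 77 canonical genes and their neighbours had group differences with a Pearson r of 0.73, across genes that share 6 libraries and, where they lie close, neighbours. By line, r was 0.50 in GST 9 and 0.67 to 0.81 in the other 5 lines. Subtracting the neighbours reduced the SD of the members' fold changes from 0.16 to 0.11. The adjustment was added after the data were seen, and it uses no group label.

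Chromosome 9 gave 3 cases in the large subunit. RPL12, at the base of the stalk, had 288, 323 and 316 CPM in the GST lines and 224, 239 and 262 CPM in the NOCT lines (log2 fold change -0.35 ± 0.096 (SE), edgeR adjusted p 0.198). Its neighbours differed by -0.35, which left -0.0022. RPL35, beside the exit of the tunnel, had 465, 465 and 504 CPM against 341, 424 and 352 CPM, and -0.02 after the subtraction. RPL7A had 798, 816 and 850 CPM against 783, 664 and 629 CPM, and 0.03 after it. In each the groups did not overlap, and the difference was close to that of the neighbours.

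RPS2, next to RPL3L at the tip of chromosome 16, had 646, 831 and 830 CPM in the GST lines and 586, 490 and 612 CPM in the NOCT lines. The fold change of -0.45 became -0.11 when neighbours, at -0.34, were subtracted. On chromosome 4, RPS3A had 121, 88.4 and 109 CPM against 82.5, 70.3 and 86.0 CPM, and RPL34 had 239, 177 and 203 CPM against 166, 142 and 170 CPM. In both, GST 2 was the highest line, and so were their neighbours there, by 0.35 and 0.36. Both NOCT groups lay below the GST lines, and the differences of -0.41 and -0.37 became -0.17 and -0.14.

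Other genes differed from their neighbours. RPL39, a short protein in the exit tunnel, had 32.3, 39.4 and 42.8 CPM in the GST lines and 28.9, 24.0 and 33.1 CPM in the NOCT lines. The groups overlapped by a little, the fold change was -0.41 ± 0.16 (SE, edgeR adjusted p 0.296), and after subtraction it was -0.44, the lowest of the 84. RPL37A, a zinc-binding protein of the large subunit, had 376, 404 and 399 CPM against 258, 278 and 373 CPM. The fold change of -0.37 became -0.22 when neighbours were subtracted. NOCT 12 was near the GST lines, and without NOCT 12 RPL37A passed edgeR's threshold at -0.55 with an adjusted p of 0.015. In that fit 3 members passed, and so did 970 of 17882 genes. RPS25, which takes part in some forms of internal initiation, had 101, 107 and 116 CPM against 98.8, 87.1 and 98.8 CPM, a fold change of -0.19 that became -0.23.

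RPL28 was the canonical gene with the highest fold change. It had 148, 147 and 150 CPM in GST 2, 8 and 9 and 189, 175 and 168 CPM in NOCT 4, 11 and 12. The groups did not overlap, and the fold change was 0.26 ± 0.083 (SE) with an edgeR adjusted p of 0.247. After subtraction of its neighbours on the long arm of chromosome 19, it was 0.18. RPL3, beside the catalytic centre on the large subunit, showed the reverse relation. It had 358, 344 and 371 CPM against 340, 295 and 422 CPM, a fold change of -0.02, while its neighbours differed by 0.27.

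After the same subtraction in all 77 canonical genes, the direction was more even across genes and not less. The median difference was -0.13, with 71 of 77 below 0 (92.2%), against a median of -0.0035 and 50.6% of 14824 other expressed genes treated alike. All 31 small-subunit genes were below 0, as were 37 of 43 in the large subunit and the 3 stalk genes. By line the medians were 0.06, 0.0017 and 0.11 in GST 2, 8 and 9, and -0.08, -0.23 and 0.09 in NOCT 4, 11 and 12. NOCT 11 was the lowest line in 70 of 77 genes, against 15.9% of the other genes. NOCT 12 again lay with the GST lines. Without NOCT 11 the median was -0.06 with 56 of 77 below 0, so that line decided much of the size of the difference.

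**Figure D4:**
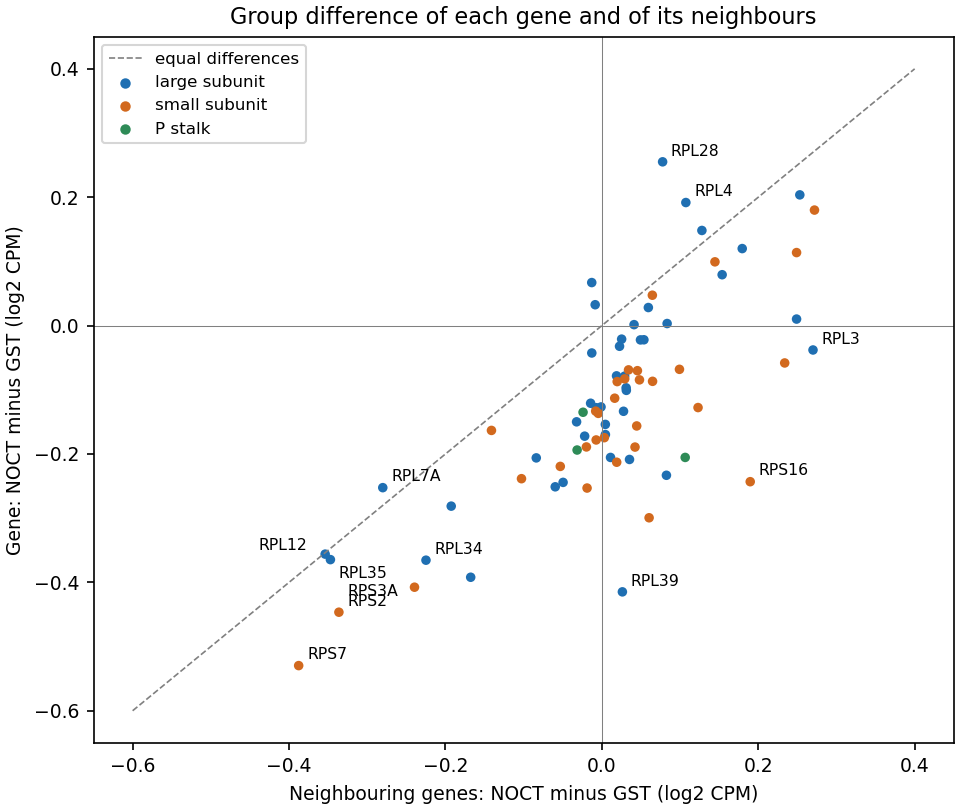
For each of the 77 canonical genes, the difference between groups in log2 CPM (vertical axis) against the median difference of up to 50 expressed genes on each side (horizontal axis), with a dashed line where both are equal. The points rise together (Pearson r 0.73 for the fitted differences), most lie below the dashed line, RPL12, RPL35 and RPL7A lie close to it, and RPL39 and RPS16 lie far below it.

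In the 3 stalk genes NOCT 11 was the lowest line and NOCT 4 the next, as in the medians of the 77 canonical genes. RPLP0, which anchors the RPLP1 and RPLP2 pairs that recruit translation factors, had 554, 585 and 636 CPM in the GST lines and 494, 451 and 618 CPM in the NOCT lines. RPLP1 had 218, 209 and 256 CPM against 176, 154 and 279 CPM, and RPLP2 had 158, 146 and 164 CPM against 139, 124 and 165 CPM. In all 3, NOCT 4 and NOCT 11 lay below every GST line and NOCT 12 lay among or above them. RPSA, a small-subunit protein also known as a laminin receptor, was also lowest in NOCT 11 and NOCT 4, with 177, 174 and 179 CPM against 158, 139 and 175 CPM.

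RPS16, RPL17, RPS10, RPL8 and RPL4 were among the genes with the widest ranges over the 6 lines. RPS16, a small-subunit protein, had 162, 73.9 and 133 CPM in the GST lines and 103, 104 and 89.3 CPM in the NOCT lines, so its whole range of 1.13 on the log2 scale lay within the controls. RPL4, whose loop lines the exit tunnel, had 862 to 998 CPM in 5 lines and 1618 CPM in NOCT 12. RPL8, beside the catalytic centre, had 246 to 337 CPM in 5 lines and 471 CPM in NOCT 12. The neighbours of RPL4 were at 0.26 and those of RPL8 at 0.52 in NOCT 12, beside 0.63 and 0.55 for the genes themselves. Both fold changes turned sign without NOCT 12, from 0.25 and 0.20 to -0.08 and -0.07. RPS10 had 5.89 to 10.5 CPM in 5 lines and 11.8 CPM in NOCT 12, and RPL17 had 8.79 to 13.9 CPM and 19.3 CPM. In RPL4, RPL8, RPS10 and RPL17 NOCT 12 was the highest line.

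A further 45 canonical genes remained after the genes with the 12 smallest p-values, the widest ranges and the other named genes were set aside. Their fold changes ran from -0.26 for RPL31 to 0.22 for RPL18, with a median of -0.09 and 35 of 45 below 0. The smallest unadjusted p among them in edgeR's test was 0.094, a bound that follows from taking the 12 smallest out. NOCT 11 was the lowest line in 36 of the 45. RPL31, beside the tunnel exit, had 194, 200 and 204 CPM in the GST lines and 133, 168 and 197 CPM in the NOCT lines, so NOCT 12 overlapped the controls. RPL18, also in the large subunit, had 422, 401 and 441 CPM against 592, 467 and 413 CPM, and NOCT 4 was the high line. RPS23, near the decoding centre, had 476, 457 and 483 CPM against 443, 389 and 440 CPM. It was the 1 gene of the 45 whose groups did not overlap, beside 20.0% of all genes, which were not chosen by p.

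The paralogs differed from the canonical genes first in level. RPL22L1, the paralog of RPL22, had 12.2 ± 0.78 TPM (SD, n = 3) in the GST lines and 12.5 ± 1.2 (SD, n = 3) in the NOCT lines, or 9.01% and 9.64% of RPL22 on the TPM scale. RPS27L, a target of p53, had 9.73 ± 0.75 TPM (SD, n = 3) and 10.1 ± 3.13 (SD, n = 3), or 2.33% and 2.42% of RPS27. RPL39L, best known from the testis, had 16.5 ± 4.54 TPM (SD, n = 3) and 17.4 ± 5.67 (SD, n = 3), or 33.0% and 44.2% of RPL39. On the same scale RPL7L1 was near its canonical gene, at 72.5% and 72.2% of RPL7. RPL26L1 was above its own, at 155% and 164% of RPL26. In CPM, which does not divide by length, both orders turned. RPL7L1 had 175% to 212% of the CPM of RPL7 over the 6 lines, and RPL26L1 had 66.5% to 80.6% of that of RPL26. RPS27L had 13.1% to 28.1% of the CPM of RPS27. RPL36AL was the paralog with the highest level per length, at 389 ± 32.6 TPM (SD, n = 3) and 551 ± 24.5 (SD, n = 3). That was many times the TPM of RPL36A, and in CPM it had 448% to 895% of RPL36A over the 6 lines. Only 19.7% of the RPL36A sequence but 85.7% of that of RPL36AL was unique, and likewise 39.2% of RPL26 but 47.1% of RPL26L1, and 33.8% of RPL7 but 78.9% of RPL7L1, so the canonical member of each pair was counted from less of its sequence. RPL3L had 88 reads over all 6 lines. RPL10L had 0 reads in each line, which allows up to 3 reads in a library by counting error alone.

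The ratio of paralog to canonical reads was tested in the 6 pairs with a mean of at least 1 CPM for both genes, with an exact two-sided permutation test over the lines that cannot go below p = 0.1. In RPL36AL over RPL36A the log2 ratio was 2.30, 2.34 and 2.16 in GST 2, 8 and 9 and 3.14, 3.16 and 2.47 in NOCT 4, 11 and 12. All 3 NOCT lines were above all 3 GST lines, and the difference of 0.65 had p = 0.1 in the exact test and 0.6 after Benjamini-Hochberg adjustment over the 6 pairs. RPL36AL had 117, 91.0 and 105 CPM in the GST lines and 139, 134 and 142 CPM in the NOCT lines. RPL36A had 23.7, 17.99 and 23.3 CPM and 15.9, 15.0 and 25.8 CPM. RPL36A was thus below the GST lines in NOCT 4 and NOCT 11 and above them in NOCT 12. Its log2 fold change was -0.20, with an edgeR adjusted p of 0.727. RPL36AL itself had a log2 fold change of 0.41 ± 0.11 (SE), with an edgeR adjusted p of 0.193 and a DESeq2 adjusted p of 0.049. It lies on the minus strand at chr14:49618519-49620685, and with its neighbours, at 0.27, subtracted it was at 0.15.

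In the other 5 pairs the groups overlapped. The difference of the log2 ratio was 0.38 for RPL39L over RPL39 (p = 0.3 in the exact test, 0.75 adjusted). It was 0.09 for RPL22L1 over RPL22 (exact p = 0.4, 0.75 adjusted), and 0.08 for RPL26L1 over RPL26 (exact p = 0.5, 0.75 adjusted). RPL7L1 over RPL7 differed by -0.0096 and RPS27L over RPS27 by -0.0067 (exact p = 1.0 and 0.9). The ratio of RPS27L to RPS27 spread widely within the NOCT lines, at -2.93, -2.13 and -1.83 in NOCT 4, 11 and 12 against -2.13, -2.26 and -2.49 in GST 2, 8 and 9. RPS27L had 21.4 CPM in NOCT 4 and 43.3 CPM in NOCT 12, the lowest and the highest of the 6 lines.

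**Figure D5:**
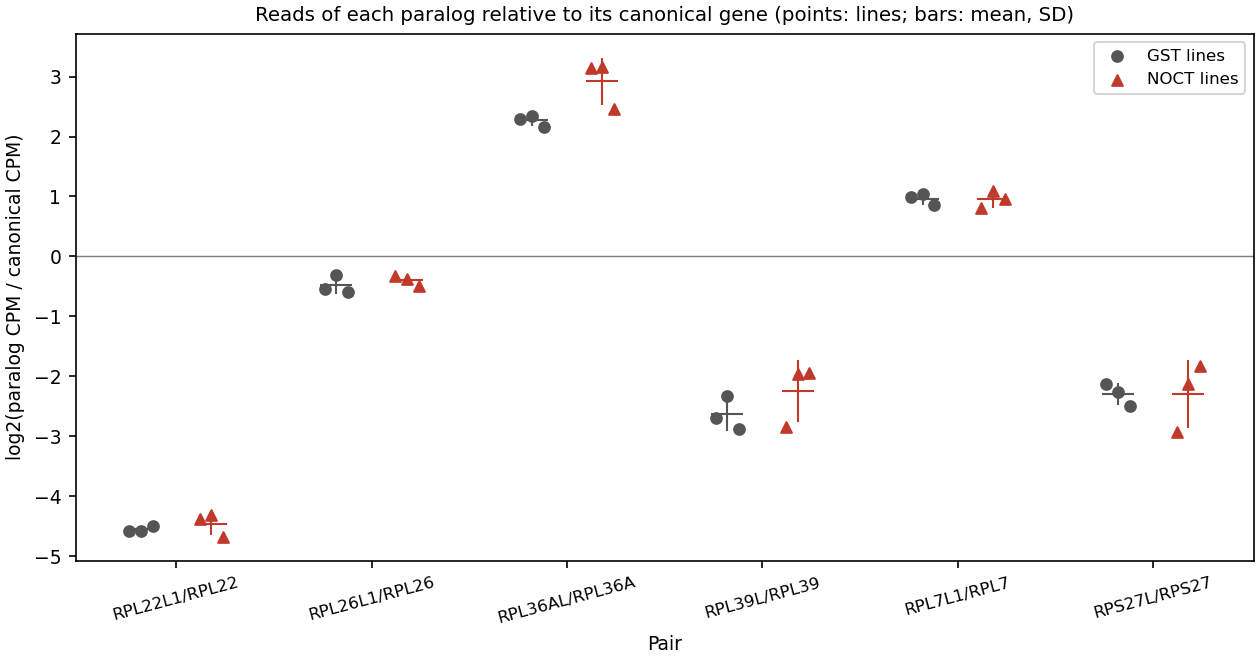
Log2 ratio of the CPM of each paralog to that of its canonical gene in the 6 tested pairs, with a point for each GST line (circles) and NOCT line (triangles) and bars for the mean and SD of 3 lines. RPL36AL over RPL36A is the pair whose groups do not overlap (2.16 to 2.34 against 2.47 to 3.16).

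The paralogs as a class had a smaller median difference than the canonical genes, and that contrast was not tested. Of the 7 tested, 5 were below 0 and 2 above, with a median fold change of -0.04. In NOCT 11 their median was -0.06, beside -0.22 for the canonical genes, and in NOCT 4 it was -0.21, beside -0.05. Their share of the counts of the 85 genes was 1.81%, 1.88% and 1.69% in GST 2, 8 and 9 and 1.89%, 2.12% and 1.96% in NOCT 4, 11 and 12. Every NOCT line was above every GST line, NOCT 4 only just, and RPL36AL and RPL7L1 supplied most of the reads. No test was made of this share, since it is a sum over chosen genes.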

How the data were processed

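The authors deposited whole-read counts per gene for 6 libraries, a table of TPM values, and a DESeq2 comparison with shrunken log2 fold changes, a test score (Wald statistic), p-values and a mean normalised signal per gene. The submitters' processing notes name Trimmomatic 0.33, cutadapt 1.8.1, STAR 2.5.2b, HTSeq 0.6.1p1, DESeq2 1.16.1 and the build GRCh38. The annotation release is not given in the sources used here. The direction of the deposited log2 values was read from the 2 construct rows. Reads with no feature were 26.5% to 30.6% of a library. In the main fit these and the other rows that name no gene were left out of library sizes.

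Counts were fitted with edgeR 4.0.16 in R 4.3.3 (filterByExpr, TMM, quasi-likelihood test, Benjamini-Hochberg over 17261 genes), with DESeq2 1.42.0, limma 3.58.1 and other alternatives beside it. The fit was tested on simulated data. CPM was logged after adding 0.1. Coordinates, exon lengths and 50-base stretches came from GENCODE 29, and start windows from RefSeq. A gene's neighbours were up to 50 non-member genes to either side whose mean reached 1 CPM. The members and the gene lists were chosen with earlier results of these data known. The named genes were both genes of each pair, the 12 smallest p-values, the 4 highest and 4 lowest TPM, the 6 widest ranges, the stalk genes and RPSA, and at most 3 genes of each other list. RPL6, RPL9, RPL18, RPL31, RPS23 and RPS28 are named beyond that rule, after their values were seen. More than 3 of the HEK293 markers are also named: NEFM, VIM, PAX2, KRT8 and INA. Some genes that the rule selects are not reported here.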

Additional observations from a re-analysis of the deposited data

How the results depend on the processing

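The count of 0 members called became 2 with DESeq2 (RPS7, RPL36AL), beside 508 of 14918 genes with an adjusted p (3.41%). With no filter it became 2 (RPS2, RPS7), beside 888 of 34539 genes. When a line was left out it was 0 to 3. RPS7, RPL12 and RPL37A were called without NOCT 12, beside 970 of 17882 genes. The count over all genes, 10, became 508 with DESeq2, 16 with limma voom, 888 with no filter and 22 with spike-in scaling. With a line left out it was 0 to 970. It was 970 of 17882 without NOCT 12, 1 without NOCT 11, and 5, 6 and 0 without GST 2, 8 and 9. The canonical median, -0.12, was 0.022 with spike-in scaling, -0.042 on both TPM scales (47 of 77 genes below 0, with the median of all genes at 0.084 and 0.072) and -0.19 to -0.04 when a line was left out, or -0.20 to -0.06 with neighbours subtracted as well. The log2 difference in summed share, -0.04, was 0.060 per spike-in count, -0.076 without mitochondrial genes and -0.0016 as a share of summed TPM. When a line was left out it was -0.09 to 0.03, above 0 without NOCT 11.

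Directions turned for these genes, none called in either state. With spike-in scaling RPL19 was at 0.016, RPL22 at 0.0012, RPL22L1 at 0.089, RPL3 at 0.12, RPL7 at 0.12, RPL7L1 at 0.10, RPLP2 at 0.017, RPS27 at 0.082, RPS27L at 0.12 and RPS4X at 0.011. On log2(TPM + 0.1) and log2(TPM + 1) RPL22L1 was at 0.026 and 0.025, RPL3 at 0.048 in both, RPL7 at 0.054 in both, RPL7L1 at 0.044 in both, RPS27 at 0.017 in both, and RPS27L at 0.011 and 0.013. RPL39L was at -0.0038 with DESeq2, -0.071 with voom, -0.0039 with median-ratio scaling and -0.0023 with no filter. RPL17 was at -0.0021 with voom and -0.031 with neighbours subtracted. With the chromosome median or the neighbours subtracted, RPL7A was at 0.040 and 0.028 and RPS29 at -0.086 and -0.092. When a line was left out, RPL17 ran from -0.28 to 0.32, RPL3 from -0.18 to 0.085, RPL39L from -0.30 to 0.24, RPL4 from -0.075 to 0.41, RPL7 from -0.078 to 0.049, RPL7L1 from -0.095 to 0.018, RPL8 from -0.075 to 0.39, RPS27 from -0.14 to 0.021 and RPS27L from -0.33 to 0.19. The log2 ratios ran from -0.077 to 0.061 for RPL7L1 over RPL7 and from -0.24 to 0.31 for RPS27L over RPS27. The causes were not tested.

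No paired analysis was possible because the 2 groups share no replicate number in the labels. With 3 lines against 3 the exact tests cannot go below 0.1. Genes under 10 CPM, such as RPL39L and RPS10, rest on few reads in each line.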

Other observations

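The tables also hold 1147 rows for pseudogenes of these genes, of which 546 had a read and 83 could be tested. Together they held 25751 reads over the 6 libraries, 0.777% of the reads of the 85 genes. RPS28P7 had the most, with 605, 813 and 671 reads in GST 2, 8 and 9 and 740, 559 and 781 reads in NOCT 4, 11 and 12. Its total of 4169 reads was above the 2208 of its parent RPS28. RPS2P46 and RPS2P5 had 1076 and 929 reads, with log2 fold changes of -0.39 and -0.38, beside -0.45 for RPS2. RPL35P5 had 751 reads and -0.55, beside -0.36 for RPL35. In edgeR's test 0 of the 83 rows passed the adjusted threshold and 5 had an unadjusted p under 0.05, against 13.9% of all genes.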
